A study of Mus musculus with 47 samples.

Results

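T cell receptor variable (V) segments are the germline gene pieces that give each receptor chain its antigen-facing end, and here they were followed through exon read counts in the small intestine of germ-free and conventionally raised mice. The members were all rows of the deposited exon count table whose symbol names a receptor V segment (Trav, Trbv, Trgv or Trdv followed by a number), which gave 91 of 38087 rows. They comprised 64 alpha, 21 beta, 1 gamma and 5 delta segments. The libraries were ribosomal-RNA-depleted total RNA from the duodenum and the ileum of C57BL/6j mice, which were male, 15 to 16 weeks old and fed ad libitum. No engineered allele is named in the labels. Conventionally raised mice (convR) live with gut microbes and germ-free mice (GF) without any, and each combination was sampled at zeitgeber time (ZT, counted in hours from lights on) 2, 6, 10, 14, 18 and 22. There were 12 convR duodenum, 12 GF duodenum, 12 convR ileum and 11 GF ileum libraries, because GF ileum at ZT 2 had 1 library. Whether libraries of a group came from separate animals is not given in the labels used here, so the p-values measure the spread between these libraries.

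Each T cell receptor is a pair of chains, alpha with beta or gamma with delta, and each chain is made by joining a V segment to joining (J) and, for beta and delta, diversity segments by recombination. The joined V region is spliced to a constant region, and the pair reaches the surface only with the CD3 signalling chains. The gut epithelium holds many intraepithelial T cells, and gamma-delta cells are a far larger share of them than of T cells in blood or lymph node. Several mouse gamma chains are tied to particular tissues, and the V gamma 7 chain, encoded by Tcrg-V7, is typical of the intestinal epithelium, where the epithelial butyrophilin-like proteins Btnl1 and Btnl6 support cells that carry it. Alpha and delta share a locus, so that some V segments are named for both chains.

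The symbol rule finds the chains unevenly. Trgv2 is the only gamma row it takes, because the other gamma V genes stand in the table as Tcrg-V3 to Tcrg-V7 and Gm16602, which GENCODE M21 names Tcrg-V1. By GENCODE's gene type the table held 140 V genes, with 105 alpha, 23 beta, 7 gamma and 5 delta, and their chain sums and shares are given beside those of the members. Of the 91 members, 89 had a GENCODE M21 (GRCm38, the mm10 build) entry, 68 of them on chromosome 14, 20 on chromosome 6 and 1 on chromosome 13. GENCODE typed 83 as V genes and 6 as V pseudogenes, and Trav7d-5 and Trbv4 had no entry. The 3' ends of the segments that carry the results are printed from the GENCODE M21 transcripts, so that the segments of a family can be set side by side. Capitals mark the TGT or TGC codon of the conserved cysteine that opens the antigen-contacting loop, found as TAT or TAC, any 3 bases, then TGT or TGC within 40 bases of the transcript's end, on the sense strand only. That pattern occurred in 95.7% of 138 V genes with a transcript and in 4.43% of 140553 other transcripts. The gamma ends come first, since Trgv2 provides all reads of its chain.
Trgv2: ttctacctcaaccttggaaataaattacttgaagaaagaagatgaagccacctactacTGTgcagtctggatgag
Tcrg-V1: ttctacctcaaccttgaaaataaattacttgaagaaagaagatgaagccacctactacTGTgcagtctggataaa
Tcrg-V3: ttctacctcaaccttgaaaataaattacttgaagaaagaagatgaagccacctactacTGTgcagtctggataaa
Tcrg-V7: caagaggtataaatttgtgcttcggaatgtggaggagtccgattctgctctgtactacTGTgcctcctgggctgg
Tcrg-V4: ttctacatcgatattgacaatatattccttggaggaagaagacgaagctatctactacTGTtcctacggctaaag
The last 75 bases of Trgv2 differed from those of Tcrg-V1 and of Tcrg-V3 at 3 positions each, and Tcrg-V1 and Tcrg-V3 were identical there, whereas Trgv2 and Tcrg-V7 differed at 41. Over whole transcripts Trgv2 shared no window of 100 bases, the length of a read, with any other gene. The delta segments with the most reads had these ends, shown because they are the partners in the gamma-delta sum.
Trdv5: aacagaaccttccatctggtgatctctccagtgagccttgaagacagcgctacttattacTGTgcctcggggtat
Trdv2-2: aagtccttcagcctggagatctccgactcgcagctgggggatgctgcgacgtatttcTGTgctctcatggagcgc
Trdv4: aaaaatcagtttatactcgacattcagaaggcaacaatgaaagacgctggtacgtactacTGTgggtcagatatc
Trdv1: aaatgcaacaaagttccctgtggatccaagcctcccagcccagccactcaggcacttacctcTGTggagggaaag
The beta segments with the most reads included the 3 members of the Trbv13 family and Trbv3, printed so that the family members can be told apart.
Trbv13-1: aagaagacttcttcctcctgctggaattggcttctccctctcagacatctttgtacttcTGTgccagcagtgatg
Trbv13-2: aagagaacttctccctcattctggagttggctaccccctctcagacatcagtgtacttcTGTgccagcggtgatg
Trbv13-3: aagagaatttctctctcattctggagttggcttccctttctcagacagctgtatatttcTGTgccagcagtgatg
Trbv3: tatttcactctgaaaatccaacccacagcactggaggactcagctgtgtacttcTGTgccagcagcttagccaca
Of the members, Trav segments were the least distinguishable: 15 of 63 alpha segments shared at least 50% of their 100-base windows with another gene, against 1 of 20 beta segments, 0 of 5 delta segments and 0 of 1 gamma segment. Trdv2-1 and Trdv2-2 shared 41.2% and 40.9% of their windows, only with each other. How the table's counts treated reads that fit several genes is not given in the sources used here, so single Trav values are uncertain.

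The libraries held 22546800 to 41911085 exon counts (median 31935017), and the members took 7985 reads over all 47 libraries, or 0.000524% of all counts. A library had 109 to 430 V reads in convR duodenum, 74 to 201 in GF duodenum, 132 to 412 in convR ileum and 10 to 46 in GF ileum. By chain the reads were 2307 alpha, 2946 beta, 1948 gamma and 784 delta. Only 21 of the 91 segments had 100 or more reads in all, and Trav4d-2 and Trav6-6 had 0. 11 libraries stood apart by pancreas or stomach marker levels, a high scaling factor or a low Fabp6 level in ileum, 9 of them duodenal, of which 7 were convR. The labelled tissues showed their markers: Pdx1, a duodenal transcription factor, had a median of 27.0 and 52.0 CPM (counts scaled to a common library size, for marker levels to the library total alone) in the duodenum groups against 0.0787 and 0.0933 in ileum, and Fabp6, an ileal bile acid carrier, had 3080 and 2900 in ileum against 0.822 and 0.691 in duodenum. Follicle tissue varied between libraries: the complement receptor Cr2 ranged from 0.162 to 19.9 CPM in convR duodenum, 0 to 6.68 in GF duodenum, 0.319 to 29.6 in convR ileum and 0.0673 to 12.5 in GF ileum. The mean over 5 B and plasma cell markers was also lower in GF mice, with medians of 313 and 33.1 CPM in convR and GF duodenum (ranges 235 to 457 and 20.5 to 65.7) and 165 and 12.7 CPM in ileum (114 to 261 and 8.13 to 21). Each of the 5 B and plasma cell markers and each of 6 follicle and naive T cell markers had a lower mean in GF mice in both tissues. Thymocyte markers had medians of 0.0212 to 0.0286 CPM in the 4 groups, with Ptcra at 0 in convR ileum, and NK cell markers 0.221 to 0.367 CPM, and the part of these cell types in the V reads was not tested.

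In duodenum, V reads were lower in GF than in convR mice, with a larger fold for the alpha-beta sum than for the gamma-delta sum. Alpha-beta V reads had a lowest, median and highest value of 2.25, 4.8 and 8.82 CPM in convR and 1.28, 2.29 and 3.98 CPM in GF libraries. The means were 5.43 ± 2.00 (SD, n = 12) and 2.32 ± 0.726 CPM (n = 12), a log2 ratio of -1.23 with a standard error (SE) of 0.20, or 2.34-fold lower in GF. Gamma-delta V reads had 1.16, 2.79 and 4.32 CPM in convR and 0.851, 1.73 and 2.37 CPM in GF libraries. Their means were 2.79 ± 0.877 and 1.73 ± 0.477 CPM, a log2 ratio of -0.69 (SE 0.17), or 1.61-fold lower. The groups overlapped for both sums, and the GF mean was below the convR mean at 6 of 6 times for both. Beta was 2.53-fold and alpha 2.14-fold lower, against 1.77-fold for delta and 1.56-fold for gamma. By GENCODE type the folds were 2.57 for beta, 1.65 for alpha, 1.77 for delta and 1.51 for gamma, or 2.04 for alpha-beta and 1.54 for gamma-delta, so the place of alpha in this order depended on which genes were counted. In bulk tissue, fewer T cells and less receptor RNA per cell cannot be told apart.

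**Figure D1:**
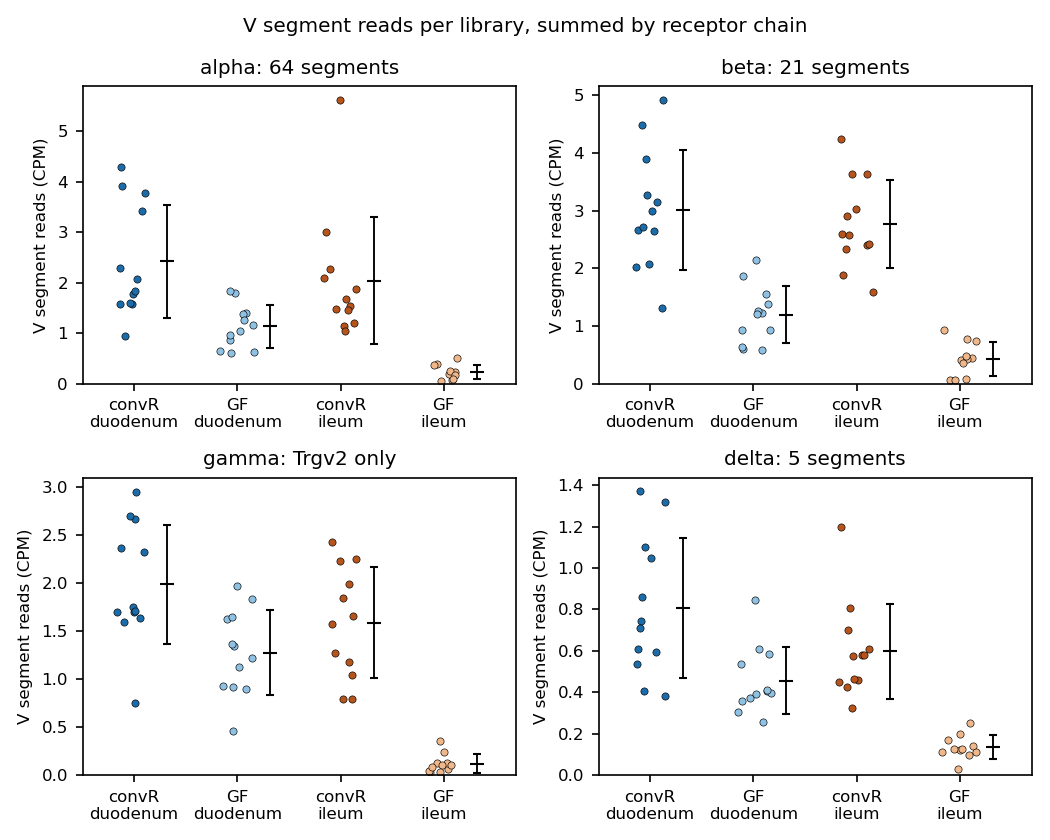
V segment reads in CPM (vertical axis) per library for each receptor chain, with 1 point per library in the 4 groups and the mean with SD beside them. In ileum the GF libraries lie below all convR libraries for each chain, and in duodenum the groups overlap.

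In ileum, all 4 chains were far lower in GF mice, with no overlap between the groups. Alpha-beta V reads had 2.79, 4.08 and 9.27 CPM as lowest, median and highest value in convR and 0.109, 0.647 and 1.17 CPM in GF libraries. The means were 4.81 ± 1.71 (n = 12) and 0.658 ± 0.331 CPM (n = 11), a log2 ratio of -2.87 (SE 0.26), or 7.31-fold lower. Gamma-delta V reads had 1.21, 2.15 and 3.46 CPM in convR and 0.0611, 0.226 and 0.480 CPM in GF libraries, with means of 2.19 ± 0.714 and 0.253 ± 0.114 CPM, a log2 ratio of -3.11 (SE 0.24), or 8.64-fold lower. By chain the GF level was 13.4-fold lower for gamma, 9.0-fold for alpha, 6.42-fold for beta and 4.44-fold for delta. By GENCODE type these were 8.99-fold for gamma, 6.72-fold for alpha, 6.09-fold for beta and 4.44-fold for delta, or 6.37-fold for alpha-beta and 7.83-fold for gamma-delta. The GF mean was lower at 6 of 6 times for each chain. With 10 to 46 V reads in a GF ileum library, the order among the chains there rests on few reads. These sums over members are given without a test. With libraries of at most 1 CPM of Cr2, the log2 ratios were -1.06 (SE 0.33) for alpha-beta and -0.58 (SE 0.33) for gamma-delta in duodenum (4 convR and 9 GF libraries) and -2.87 (SE 0.47) and -3.60 (SE 0.22) in ileum (4 and 2 libraries). Without the 11 libraries that stood apart they were -1.32 and -0.81 in duodenum and -2.91 and -3.20 in ileum.

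The share of gamma-delta reads among all V reads sets the chains against each other within a library. Per kilobase of exon it averaged 35.2%, 44.4%, 31.9% and 31.8% in convR duodenum, GF duodenum, convR ileum and GF ileum, close to the shares of reads that follow. It was 34.3% ± 3.41 (SD, n = 12) in convR duodenum, with libraries from 27.8% to 38.6%, and 43.0% ± 9.01 (n = 12) in GF duodenum, from 26.4% to 64.9%. The GF mean was higher at 6 of 6 times, by 2.20 to 20.5 percentage points, but the 2 groups overlapped. The GF library with the highest share had 48 gamma-delta reads of 74 (exact Clopper-Pearson 95% interval 52.9% to 75.6%), and the GF library with the lowest had 28 of 106 (18.3% to 35.9%). In ileum the share was 31.4% ± 4.65 (n = 12) in convR and 30.9% ± 15.1 (n = 11) in GF libraries, where it ran from 9.09% (2 of 22 reads, interval 1.12% to 29.2%) to 63.6% (7 of 11 reads, 30.8% to 89.1%). The ileal GF mean was above convR at 3 of 6 times, so no direction was detectable at this depth. Intervals cover counting error only, since reads amplified by PCR are not independent molecules.

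Counting all 140 V genes brought in 6 more gamma genes and gave a higher share in each group. It was then 51.1% ± 4.11 in convR duodenum, 58.0% ± 7.56 in GF duodenum, 42.4% ± 4.93 in convR ileum and 39.4% ± 13.4 in GF ileum. Moving the 7 segments named for both alpha and delta, which held 25.1% of alpha reads, to delta gave 41.9% and 51.0% in duodenum and 37.5% and 37.7% in ileum, in convR and GF libraries. In each of these countings the GF duodenum mean lay above the convR duodenum mean. With libraries of at most 1 CPM of Cr2 the shares by symbol were 35.0% ± 2.42 (n = 4) and 43.0% ± 3.67 (n = 9) in convR and GF duodenum, and 35.8% ± 3.96 (n = 4) and 26.8% ± 11.3 (n = 2) in convR and GF ileum.

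**Figure D2:**
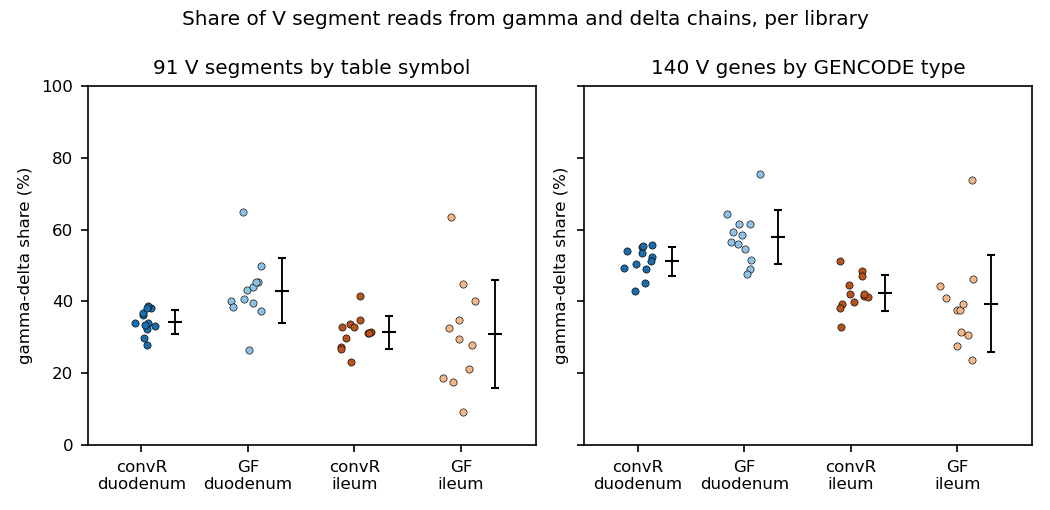
Share of V reads from gamma and delta segments in percent (vertical axis) per library, by the 91 symbols (left) and by the 140 GENCODE V genes (right), with 1 point per library and the mean with SD for 4 groups. GF duodenum averages 43.0% against 34.3% in convR by symbol, and GF ileum libraries spread from 9.09% to 63.6%.

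The constant region genes, which the rule did not use, set gamma against alpha with more reads. Beta and delta chains do not enter this comparison, so it is not the balance of alpha-beta with gamma-delta. Trac encodes the constant region of all alpha chains, and Trgc1, Trgc2 and Trgc4 (Tcrg-C1, Tcrg-C2 and Tcrg-C in the table) those of most gamma chains. Trdc, the delta constant region, was not analysed here, so the ratio of gamma to alpha was used. The log2 ratio of summed Trgc1, Trgc2 and Trgc4 reads to Trac reads, with 0.5 added to each, was 1.61 ± 0.271 (SD, n = 12) in convR duodenum, from 1.23 to 2.05, and 2.47 ± 0.497 (n = 12) in GF duodenum, from 1.5 to 3.17. The difference averaged over times was 0.86, GF was higher at 6 of 6 times, and an exact permutation test that swapped labels within times gave a two-sided p of 0.000214 (0.000428 adjusted over the 2 tissues). By GENCODE type, the duodenal folds of alpha and gamma V reads given above lay closer together than this difference. In ileum the ratio was 1.38 ± 0.279 in convR, from 1.05 to 1.96, and 1.89 ± 1.24 in GF libraries, from 0.455 to 4.86. The difference there was 0.54, GF was higher at 4 of 6 times, and the exact permutation p was 0.159. The GF library with the highest ratio had 1 Trac read. The GF effects of the 2 tissues differed by -0.32, with a two-sided permutation p of 0.432 from 100000 draws of tissue labels within status and time. Those draws did not keep the convR pairs of one number and time, and with tissue swapped within these pairs the p was 0.441.

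Without the 11 libraries that stood apart, the duodenal difference was 0.81 over the 4 times that kept both groups. The 5 convR libraries left entered it, but of the 10 GF libraries left only those at these times. The exact permutation p was 0.00926, the smallest that 108 label assignments allow. With libraries of at most 1 CPM of Cr2 the duodenal difference was 0.44 over the 3 times with both groups (exact permutation p = 0.389 from 36 label assignments). The 4 convR libraries entered it, but of the 9 GF libraries only those at these times. Mean ratios over all 4 convR and 9 GF libraries were 1.71 and 2.4. The mean of 6 follicle and naive T cell markers had a median of 2.92 CPM (0.623 to 8.00) in convR and 0.459 CPM (0.349 to 3.02) in GF duodenum, and 5.01 CPM (0.671 to 10.6) and 1.79 CPM (0.370 to 4.62) in the ileum groups. Its part in the balance of chains was not tested.

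**Figure D3:**
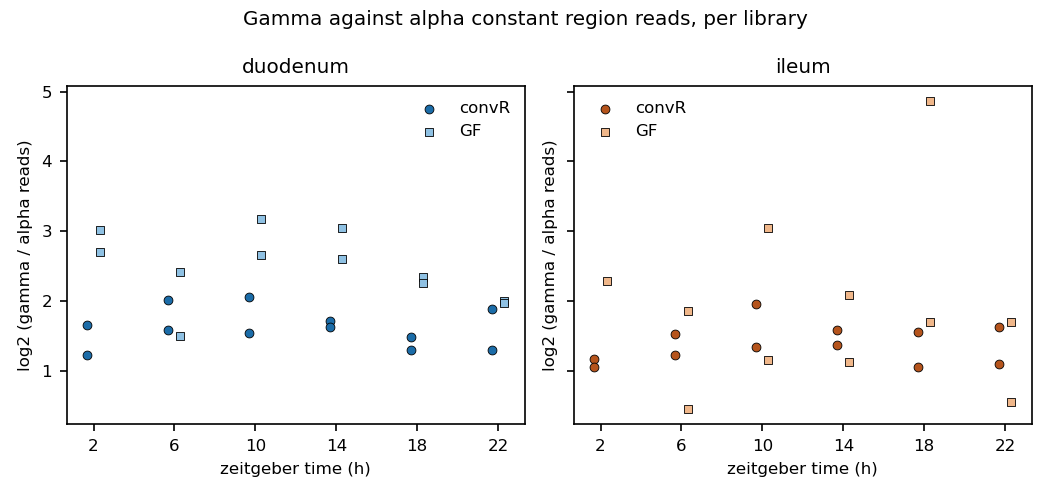
Log2 ratio of gamma (Trgc1, Trgc2 and Trgc4) to alpha (Trac) constant region reads (vertical axis) against zeitgeber time in hours, 1 point per library, circles for convR and squares for GF. Duodenal GF libraries average 2.47 against 1.61 in convR, and ileal GF libraries range from 0.455 to 4.86.

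Single segments could be tested only where they passed the filter on low counts (a minimum count of 10), which 6 of 91 did in duodenum and 5 of 91 in ileum. In duodenum 5 of the 6 fell in GF mice by edgeR's quasi-likelihood test (Benjamini-Hochberg adjusted p under 0.05 over 19242 genes) and none rose, where 24.3% of all tested genes fell. In ileum 5 of 5 fell, where 21.7% of 19376 genes fell. A segment that passes only through its high group had to differ, so these counts describe the readable segments and not the family. Without the filter, 24 of 89 members with a read fell in duodenum and 46 of 87 in ileum, where 13.6% and 13.0% of all genes fell. By edgeR no member rose in either tissue, with or without the filter. At an unadjusted p under 0.05, 0 were higher with the filter and 2 in duodenum and 0 in ileum without it, and DESeq2 also called 0 higher. Leaving out the 11 libraries that stood apart left 0 of 14 tested members below the threshold in duodenum, with 5 lower and 0 higher at an unadjusted edgeR p under 0.05, and 5 of 5 called in ileum.

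Trgv2, the gamma segment, lies on chromosome 13 at chr13:19336573-19337167 on the minus strand and had the most reads of any member. Its lowest, median and highest levels were 0.749, 1.73 and 2.95 CPM in convR duodenum, 0.456, 1.28 and 1.97 in GF duodenum, 0.786, 1.61 and 2.43 in convR ileum and 0.0283, 0.102 and 0.352 in GF ileum. The duodenal groups overlapped and the ileal groups did not. The log2 fold change in GF was -0.66 (approximate SE 0.21, edgeR adjusted p = 0.0129) in duodenum and -3.73 (SE 0.29, adjusted p = 3.05e-09) in ileum. The ileal effect minus the duodenal effect was -3.05 on the log2 scale (SE 0.38, edgeR adjusted p = 3.83e-07 for the interaction).

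Of the 6 further gamma V genes, outside the symbol rule and added after their values were seen, Tcrg-V7 and Tcrg-V4 were lower in ileum than in duodenum of convR mice. Tcrg-V7, the intestinal V gamma 7 gene, averaged 1.95 ± 0.548 CPM in convR duodenum, 1.23 ± 0.303 in GF duodenum, 0.749 ± 0.354 in convR ileum and 0.108 ± 0.104 in GF ileum. It fell in GF mice with a log2 change of -0.65 (SE 0.15, edgeR adjusted p = 0.00131) in duodenum and -2.76 (SE 0.39, adjusted p = 8.16e-06) in ileum. Its log2 ratio of convR ileum to convR duodenum was -1.41 (SE 0.21, edgeR adjusted p = 1.02e-05), that of Tcrg-V4 was -0.73 (adjusted p = 0.000121), that of Tcrg-V1 -0.25 (adjusted p = 0.306) and that of Trgv2 -0.35 (adjusted p = 0.131). Tcrg-V4 averaged 0.893 ± 0.249, 0.662 ± 0.241, 0.539 ± 0.155 and 0.0550 ± 0.0400 CPM in the same order, with a GF effect of -0.43 (edgeR adjusted p = 0.0764, or 0.0235 with library size scaling) in duodenum and -3.15 (adjusted p = 3.87e-08) in ileum. Tcrg-V1 averaged 0.534 ± 0.149, 0.458 ± 0.148, 0.458 ± 0.191 and 0.0731 ± 0.0241 CPM, with a GF effect of -0.23 (edgeR adjusted p = 0.364) in duodenum and -2.53 (adjusted p = 2.04e-07) in ileum. Tcrg-V3, Tcrg-V5 and Tcrg-V6 had 52, 101 and 61 reads in all and did not pass the filter in either tissue. Of gamma reads, Tcrg-V7 made up 34.9% (exact Clopper-Pearson 95% interval 32.9% to 36.9%) in convR duodenum and 21.2% (19.1% to 23.4%) in convR ileum, and Trgv2 made up 35.5% and 45%. These shares pool reads over libraries, and their intervals leave out the spread between libraries.

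**Figure D4:**
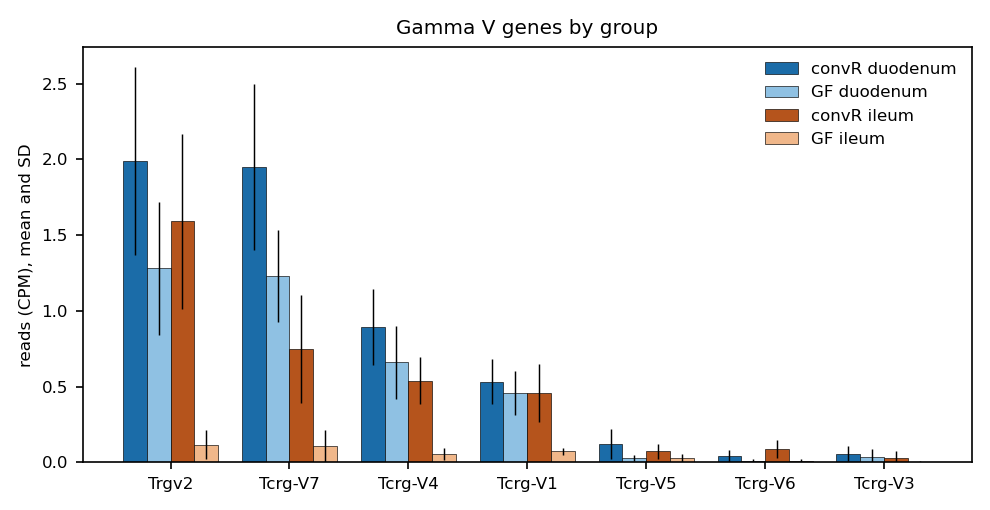
Mean CPM with SD (vertical axis) of the 7 gamma V genes in the 4 groups, with bars from 0 and the lower SD cut at 0. Trgv2 and Tcrg-V7 have the highest levels, and Tcrg-V7 is at 1.95 CPM in convR duodenum and 0.749 CPM in convR ileum.

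Beta segments lie on chromosome 6, and the most read were Trbv13-2 (294 reads), Trbv16 (290), Trbv3 (288), Trbv13-1 (245), Trbv13-3 (217) and Trbv1 (195). Trbv13-2, at chr6:41121396-41121832, had 0.0693, 0.240 and 0.629 CPM as lowest, median and highest level in convR duodenum, 0, 0.0855 and 0.411 in GF duodenum, 0.0794, 0.281 and 0.427 in convR ileum and 0, 0.0307 and 0.0933 in GF ileum. Both pairs of groups overlapped. It fell in GF duodenum with a log2 change of -1.28 (SE 0.36, edgeR adjusted p = 0.00644) and in GF ileum at -2.88 (SE 0.44, adjusted p = 2.21e-05). Trbv3, at chr6:41048290-41048828, had a GF effect of -0.82 (SE 0.43, edgeR adjusted p = 0.126, or 0.0444 without GF duodenum replicate 2 at ZT 2) in duodenum and -3.18 (SE 0.36, adjusted p = 5.66e-07) in ileum. Trbv13-1 and Trbv13-3 fell at log2 fold changes of -2.89 and -3.13 in ileum (edgeR adjusted p = 6.74e-05 and 1.33e-05). Trbv16 fell with a log2 change of -0.93 (SE 0.37, edgeR adjusted p = 0.0445) in duodenum, and lost that call when any of 16 of the 24 libraries was left out (adjusted p up to 0.0968). Trbv1, with means of 0.217, 0.0734, 0.164 and 0.0325 CPM in convR duodenum, GF duodenum, convR ileum and GF ileum, did not pass the filter within either tissue. Trbv15 fell with a log2 change of -1.20 (SE 0.46, edgeR adjusted p = 0.0379) in duodenum, and is named after its values were seen. All 21 beta segments had reads in each of the 4 groups.

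Delta segments lie in the alpha locus on chromosome 14. Trdv5, at chr14:54148662-54149294 on the minus strand, had 270 reads, with 0.139, 0.302 and 0.555 CPM as lowest, median and highest level in convR duodenum and 0.0492, 0.170 and 0.356 in GF duodenum. In ileum it had 0.0321, 0.152 and 0.371 CPM in convR and 0, 0.0273 and 0.0622 in GF libraries. It fell in GF duodenum with a log2 change of -0.83 (SE 0.26, edgeR adjusted p = 0.0124) and did not pass the filter in ileum. Trdv2-2 averaged 0.242, 0.143, 0.154 and 0.0311 CPM in the same group order, and Trdv1 averaged 0.125, 0.0782, 0.0887 and 0.0103 CPM. Trdv4 had its highest mean in convR ileum rather than in convR duodenum: it averaged 0.0969 ± 0.0658 and 0.0561 ± 0.0506 CPM in convR and GF duodenum and 0.164 ± 0.0909 and 0.0704 ± 0.0353 CPM in convR and GF ileum. It had a read in 11 of 11 GF ileum libraries, whereas Trdv5 had one in 6. Of the delta reads it made up 12.1% (exact Clopper-Pearson 95% interval 8.78% to 16.1%) in convR duodenum, 12.6% (7.86% to 18.8%) in GF duodenum, 27.5% (22.1% to 33.6%) in convR ileum and 53.2% (38.1% to 67.9%, 25 of 47 reads) in GF ileum. These shares pool reads over libraries, and no test was made of them. Their intervals leave out the spread between libraries. Trdv2-1 had 11 reads in each convR group and 0 in each GF group, where a count of 0 allows up to 3 reads.

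Alpha segments were the most numerous and the thinnest, and none passed the filter. The most read were Trav15-2-dv6-2 (158 reads), Trav8-2 (145), Trav13-4-dv7 (133), Trav16 (128), Trav13-1 (100) and Trav15d-1-dv6d-1 (81). Trav15-2-dv6-2, whose name marks use with alpha and delta, had 83, 26, 39 and 10 reads in convR duodenum, GF duodenum, convR ileum and GF ileum. Trav13-1 had 54, 7, 38 and 1 reads in the same order. Trav8-2 had 64, 40, 34 and 7 reads, but the table gives it 2371 bases of exon where GENCODE places a V pseudogene of its name at chr14:53738375-53738838. Trav15d-1-dv6d-1 shares 82.1% of its 100-base windows with 1 other gene, Trav15n-1. In convR duodenum a median of 30 of 64 alpha segments had a read in a library, against 19 in GF duodenum, 27.5 in convR ileum and 5 in GF ileum, a count that moves with the number of reads.

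Between tissues of convR mice, V reads overlapped, with alpha-beta at a log2 ratio of ileum to duodenum of -0.18 (SE 0.21, ileal mean lower at 5 of 6 times) and gamma-delta at -0.35 (SE 0.19, 6 of 6 times). By GENCODE type alpha-beta was at -0.13 (SE 0.23) and gamma-delta at -0.63 (SE 0.17), the latter 1.55-fold lower in ileum, with gamma alone 1.59-fold lower. Of 9 members tested, 0 were higher in ileum and 2 lower by edgeR, where 24.9% of genes were lower: Trdv5 at a log2 ratio of -0.94 (SE 0.29, adjusted p = 0.00946) and Trbv16 at -0.67 (SE 0.25, adjusted p = 0.0323). With duodenum and ileum of one number and time as a block, 3 were lower, since Trdv2-2 passed at -0.65 (edgeR adjusted p = 0.0246, against 0.0522 without the block). At an unadjusted edgeR p under 0.05, 0 members were higher, and DESeq2 also called 0 higher and 2 lower. Without the libraries that stood apart edgeR called none of 16, with 2 lower at an unadjusted p under 0.05. In GF mice the ileum lay far below the duodenum: alpha-beta at -1.82 (SE 0.25) and gamma-delta at -2.78 (SE 0.23) on the log2 scale, 3.53-fold and 6.85-fold lower. Trgv2, the only member tested there, was lower in GF ileum at a log2 ratio of -3.33 (SE 0.30, edgeR adjusted p = 3.12e-09), where 32.4% of genes were lower.

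The GF effect differed between the tissues for 3 of 12 members tested, where 11.4% of 20104 genes differed. Besides Trgv2, these were Trbv3 at -2.34 (SE 0.65, edgeR adjusted p = 0.0136) and Trdv5 at -1.83 (SE 0.53, adjusted p = 0.0195), with the ileal effect the more negative in each. Without the libraries that stood apart only Trgv2 was called of 16 tested. The remaining 9 had differences of -0.70 to -1.87, all in the same direction and none past the threshold by edgeR, while DESeq2 called 4 members, among them Trbv13-1 at -1.94 (adjusted p = 0.0478, against 0.0571 by edgeR).

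**Figure D5:**
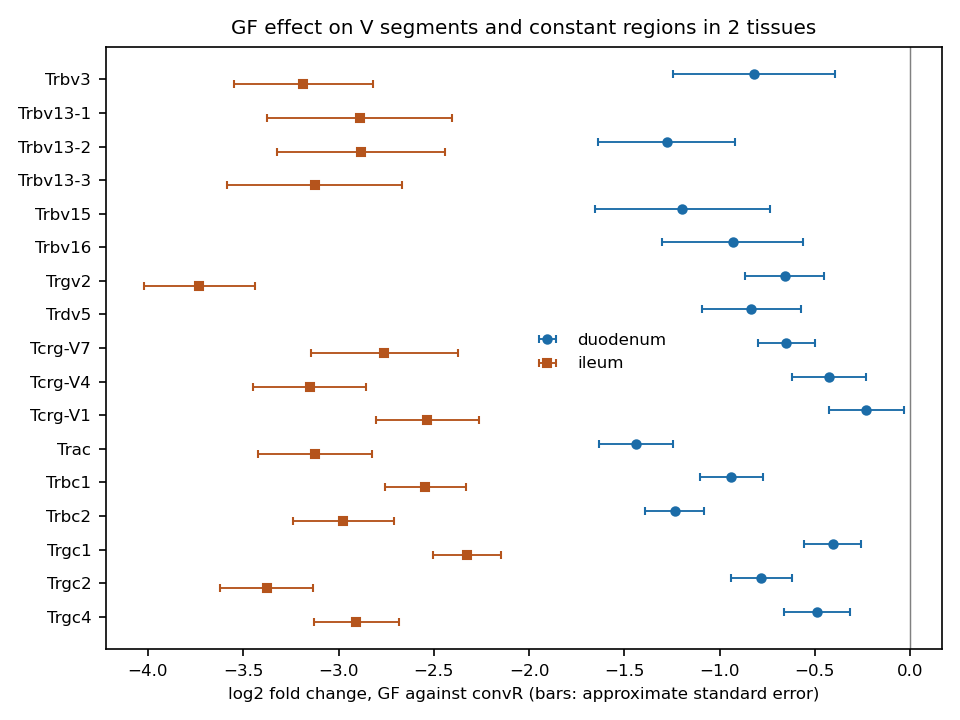
Log2 fold change in GF against convR mice (horizontal axis) with approximate standard error for V segments and constant region genes that were tested, circles for duodenum and squares for ileum. Ileal effects lie between -3.73 and -2.33 and duodenal effects between -1.44 and -0.23 in this set.

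No member tested was called for a 24 h rhythm by a cosine fit in edgeR (smallest adjusted p = 0.633). Trgv2 was the 1 member tested in convR duodenum, convR ileum and GF duodenum, where 0.0301%, 0.133% and 2.68% of genes were called, and it had 0 calls at an unadjusted p under 0.05 too. With the 6 times as a factor it was not called either, and no member passed the filter in GF ileum.

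All 6 receptor constant region genes tested fell in GF mice in both tissues, against the 24.3% and 21.7% of all genes. Trac had 1.16, 3.85 and 4.86 CPM as lowest, median and highest level in convR duodenum and 0.698, 1.18 and 1.86 in GF duodenum, which overlapped. It had 1.91, 2.49 and 3.89 CPM in convR ileum and 0.0283, 0.289 and 0.783 in GF ileum, with no overlap. Its log2 fold change was -1.44 (SE 0.19, edgeR adjusted p = 4.52e-06) in duodenum and -3.12 (SE 0.30, adjusted p = 8.51e-08) in ileum. For the beta constant regions the changes were -0.94 (Trbc1) and -1.24 (Trbc2) in duodenum and -2.55 and -2.97 in ileum. For the gamma constant regions they were -0.41 (Trgc1), -0.78 (Trgc2) and -0.49 (Trgc4) in duodenum and -2.33, -3.38 and -2.91 in ileum. The edgeR adjusted p was 0.0332 for Trgc1 and 0.0252 for Trgc4 in duodenum, and each lost its call there when the libraries that stood apart were left out (0.133 and 0.177). Leaving out single libraries ended the call of Trgc1 for 10 of 24 and of Trgc4 for 4 of 24. Trgc3 (Gm17356) had 40 reads in all and was not tested. The interaction with tissue was past the threshold for all 6, from -1.59 (Trbc1) to -2.58 (Trgc2). Between tissues of convR mice 2 of 6, Trgc1 and Trgc2, were lower in ileum by edgeR. With the replicate block Trac and Trgc4 were lower too (adjusted p = 0.0301 and 0.0172, against 0.0593 and 0.0524), as they were by DESeq2 (adjusted p = 0.0457 and 0.0394). Without the libraries that stood apart Trgc2 lost this call (edgeR adjusted p = 0.0963, against 0.0116) and Trgc4 gained it (0.034).

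Joining segments, the partners of V segments in each chain, showed the same direction. The list of joining and diversity segments held 75, of which 59 were alpha, 14 beta and 2 delta, with none for gamma. Of these, 27 were tested in duodenum, of which 26 fell and 0 rose, and 26 in ileum, of which 26 fell. Of all genes 24.3% and 21.7% fell. These counts too hold segments that passed the filter through their high group, so they describe the readable segments. Traj1 fell at log2 fold changes of -1.46 and -3.70 and Traj14 at -1.42 and -3.28 in duodenum and ileum (edgeR adjusted p = 0.0105, 8.89e-07, 0.00397 and 1.71e-06). Both lost the duodenal call without the libraries that stood apart (adjusted p = 0.37 and 0.157). Summed Traj reads were 11.1 ± 4.77 and 3.78 ± 2.23 CPM in convR and GF duodenum and 8.90 ± 5.08 and 0.778 ± 0.848 CPM in the ileum. The 2 delta joining segments in the table had 0.449 ± 0.179 and 0.299 ± 0.165 CPM in duodenum, and 0.278 ± 0.136 and 0.0260 ± 0.0405 CPM in ileum.

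The 4 CD3 chains, which carry the receptor's signal, fell in both tissues, 4 of 4 each time. In duodenum and ileum the log2 fold changes were -0.74 and -3.20 for Cd3g, -0.70 and -3.28 for Cd3e, -1.06 and -3.42 for Cd3d and -0.96 and -2.05 for Cd247, with edgeR adjusted p of at most 0.0045. Of the coreceptors, 3 of 3 fell in each tissue, with Cd4 at -0.74 and -1.89 and Cd8a at -0.56 and -3.78 in duodenum and ileum. Of 9 proximal kinases and adaptors 8 fell in duodenum and 9 in ileum, with Zap70, which relays the receptor signal, at -0.78 and -3.18 and the adaptor Lcp2 at -0.74 and -1.87. Of 6 cytotoxic granule genes 6 fell in both, with Fasl, a death ligand, at -0.42 and -3.34 and Prf1, the pore-forming perforin, at -1.21 and -3.57. The duodenal call of Fasl (edgeR adjusted p = 0.0389) was lost without the libraries that stood apart (0.059) and when any of 16 of 24 libraries was left out (up to 0.109). Of 15 homing, residence and survival genes 8 fell and 2 rose in duodenum and 12 fell and 1 rose in ileum, with Cd160 at -0.62 and -2.33 and the integrin Itgb7 at -1.20 and -2.58. Over all genes tested, 24.3% fell and 20.3% rose in duodenum, and 21.7% fell and 19.5% rose in ileum. The median log2 change was -0.02 over all genes tested in duodenum and 0.01 in ileum.

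Of 6 butyrophilin-like genes, which the epithelium expresses, 5 rose and 0 fell in GF duodenum, where 20.3% of all genes rose, and 1 rose in GF ileum, where 19.5% did. On the log2 scale Btnl1 rose by 0.48 (SE 0.08, edgeR adjusted p = 4.76e-05) and Btnl6 by 0.31 (adjusted p = 0.00285) in duodenum. Btnl4 rose by 0.49 (adjusted p = 3.37e-06), Btnl2 by 0.30 (adjusted p = 0.00289) and Btnl7-ps by 0.36 (adjusted p = 0.00361) there, all by edgeR. Btnl9 had -0.15 (adjusted p = 0.689). In ileum Btnl1 rose by 0.25 (edgeR adjusted p = 0.0289), and the call was lost when libraries that stood apart were left out (0.0506), with library size scaling (0.054), without the filter (0.0608) or without any of 5 libraries (up to 0.0628). Btnl6 in ileum had 0.15 (adjusted p = 0.0764). Btnl2 and Btnl7-ps lost their duodenal calls without the libraries that stood apart (adjusted p = 0.177 and 0.0576).

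The counts in this paragraph stand beside 24.3% of all genes lower and 20.3% higher in duodenum, and 21.7% and 19.5% in ileum. Of 7 nonclassical MHC genes 2 fell and 2 rose in duodenum, near these shares, and 4 fell in ileum. In ileum H2-T10 was at -1.19 and H2-T22 at -0.45 (edgeR adjusted p = 5.92e-08 and 8.96e-05). H2-T10 and H2-T22 had -0.30 and -0.16 in duodenum (adjusted p = 0.0562 and 0.171, or 0.0108 and 0.00941 with library size scaling). Of the 8 lineage genes of gamma-delta cells, some of which other gut cells also express, 2 of 6 tested rose and 1 fell in duodenum. In ileum 2 of 7 tested rose and 2 fell, and with so few genes these counts too lie near the shares of all genes. The gene that fell in duodenum was Blk, a kinase also known from B cells, and those that fell in ileum were Tcrg-V4 and Cd163l1. Blk and Cd163l1 are named after their values were seen. The transcription factor Sox13 rose by 0.35 in both tissues (edgeR adjusted p = 0.0263 and 1.87e-05), with the duodenal call lost without the libraries that stood apart (0.324), with library size scaling (0.118), without the filter (0.0528) and without GF duodenum replicate 1 at ZT 18 (0.0503). Of 9 naive T cell and follicle genes 7 were tested, and 7 fell in duodenum and 2 in ileum, with Ccr7, a receptor for lymphoid tissue, at -1.27 and -1.47 and Tcf7, a transcription factor, at -0.50 and -0.45. The Ccr7 calls were lost without the libraries that stood apart in duodenum (edgeR adjusted p = 0.0576) and when any of 4 libraries was left out in ileum (up to 0.057). Of 6 NK and innate lymphoid genes 3 were tested, of which 0 fell in duodenum and 2 in ileum, with Klrb1c at 0.16 (adjusted p = 0.484) and -0.62 (adjusted p = 0.00209). Ncr1 had -0.56 (adjusted p = 0.0969) and -0.73 (adjusted p = 0.022), the latter lost without convR ileum replicate 2 at ZT 18 (0.0535). The recombination genes Rag1, Rag2, Dntt and Ptcra averaged at most 0.0864 CPM in any group when scaled to library totals, and none was tested.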

How the data were processed

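Exon reads of 47 libraries had been counted per gene, and the deposited values are the authors' raw counts. Per the labels' protocols, libraries were stranded, ribosomal-RNA-depleted total RNA read in pairs. Per the submitters' processing notes, the tools include STAR 2.4.0i and the build is mm10. How reads were counted (program, strand, reads that fit several genes) is not given in the sources used here.

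The gene counts went into edgeR 4.0.16 (glmQLFit robust, glmQLFTest, TMM scaling, filterByExpr with a minimum count of 10, Benjamini-Hochberg adjustment over all genes tested, threshold 0.05), with zeitgeber time as a factor, in R 4.3.3. GF was compared with convR within each tissue, ileum with duodenum within each status, and the interaction was fitted over all 47 libraries. Rhythm was a 24 h sine and cosine pair. CPM are counts scaled to a common library size by edgeR with TMM factors, except marker levels and the Cr2 limit, which use library totals alone. The approximate SE of a fold change is its size divided by the square root of the F statistic. The scripts were tested on simulated data. Libraries held 22546800 to 41911085 counts, so a segment with a few reads has wide counting error, given as exact intervals where shares are printed. SciPy 1.17.1 was used for intervals. Chain sums and shares have no test, being scores over the members.

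The members and gene lists were chosen with earlier results of these data known. Named genes were the 6 segments of each chain with the most counts, the 3 members with the smallest p in each tissue, all constant region, CD3 and butyrophilin-like genes, and up to 2 genes of each other list with the smallest ileal p. The ratio of constant regions was planned with Trdc, which was not analysed here, and was computed with the gamma constant regions instead. Duodenum and ileum of convR mice with the same number and time deviated together at each of 6 times (correlation 0.222 to 0.501). These numbers were treated as pairs only in the replicate block and in the permutation that swapped tissue within pairs. The main fits between tissues and of the interaction did not use the pairs. Alternatives were DESeq2 1.42.0, library size scaling, other filters, the replicate block, leaving out libraries, and other ways to assign segments to chains. Leaving out libraries that stood apart or had over 1 CPM of Cr2, and counting by GENCODE type, were chosen after seeing the data.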

Additional observations from a re-analysis of the deposited data

Results flagged for a closer look

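The GF effect differed between ileum and duodenum for 28 of the 43 named genes tested, by the interaction term of edgeR's quasi-likelihood fit at an adjusted p under 0.05. Over all genes tested, 11.4% of 20104 differed. Genes of many lists were named for the smallest ileal p, a choice that favours large ileal effects. The values are the log2 effect in ileum minus that in duodenum, and all 28 were negative. Among V segments they were -3.05 for Trgv2, -2.71 for Tcrg-V4, -2.34 for Trbv3 and -1.83 for Trdv5. Among constant and joining regions they were -1.67 for Trac, -1.59 for Trbc1, -1.72 for Trbc2, -1.90 for Trgc1, -2.58 for Trgc2, -2.40 for Trgc4, -2.22 for Traj1 and -1.84 for Traj14. The CD3 chains had -2.35 (Cd3d), -2.56 (Cd3e), -2.44 (Cd3g) and -1.07 (Cd247), and the coreceptors -1.13 (Cd4) and -3.20 (Cd8a). Signalling and effector genes had -2.38 (Zap70), -1.12 (Lcp2), -2.90 (Fasl) and -2.34 (Prf1). The remaining values were -1.69 for Cd160, -1.36 for Itgb7, -0.75 for Klrb1c, -0.88 for H2-T10, -0.32 for Btnl4 and -0.46 for Btnl7-ps. Without the libraries that stood apart, the difference no longer passed the threshold for Trbv3 (adjusted p = 0.0863), Trdv5 (0.135), Traj1 (0.0535), Traj14 (0.0737), Btnl4 (0.347) and Btnl7-ps (0.227). That of Traj14 was also lost with library size scaling (0.0535) and that of Btnl7-ps without the filter on low counts (0.0627).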

How the results depend on the processing

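Members lower in GF duodenum numbered 5 of 6 tested, against 24 of 89 without a filter, 1 of 1 at a mean of at least 1 CPM and 0 of 14 without the libraries that stood apart. Leaving out single libraries gave 3 to 9: 3 without convR replicate 2 at ZT 6 or GF replicate 1 at ZT 10, 8 without convR replicate 1 at ZT 2 or ZT 22 or GF replicate 1 at ZT 18, and 9 without convR replicate 1 at ZT 6 or GF replicate 2 at ZT 2. In ileum 5 of 5 became 46 of 87 without a filter and 8 of 8 by GENCODE type, and 4 to 7 were called when libraries were left out. A tissue-dependent GF effect (3 of 12 members) was called for 1 of 1 at a mean of at least 1 CPM and for 1 of 16 without the libraries that stood apart. Members lower in convR ileum than duodenum (2 of 9) became 0 of 1 and 0 of 16 in these settings. Those lower in GF ileum than duodenum (1 of 1) became 19 of 81 without a filter and 2 of 2 without the libraries that stood apart. Over all genes, 6374 of 31658 and 6268 of 19574 were lower there in the same settings. Hence 19 of 81 lies near the share of all genes. The list genes lower in GF duodenum numbered 71, and 42 without the libraries that stood apart. Over all genes tested, those lower likewise went from 4674 of 19242 to 2207 of 20004. With libraries of at most 1 CPM of Cr2 the log2 gamma to alpha ratio differed by 0.436 in duodenum (exact permutation p = 0.389 from 36 label assignments at 3 times). In ileum it differed by -0.803, a reversed direction, at 1 time with only 2 label assignments, too few for a test. That value sets 1 GF library against 1 convR library. Mean ratios over all 4 convR and 2 GF ileum libraries of this setting were 1.62 and 3.01, with GF higher. When single libraries were left out, the ratio difference was 0.783 to 0.937 in duodenum (exact permutation p 8.57e-05 to 0.000814) and 0.28 to 0.807 in ileum (0.0609 to 0.387). The gamma-delta share with the segments named for both alpha and delta moved to delta was 41.9% in convR duodenum and 37.5% in convR ileum. By GENCODE type it was 51.1%, 58.0% and 42.4% in convR duodenum, GF duodenum and convR ileum, and 51.7%, 58.4% and 42.5% per kilobase. Several alternatives also changed the number of samples or genes tested, and the cause of a change was not tested.

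With the replicate block, 5 members were lower in GF duodenum, 5 in GF ileum and 3 differed between tissues, as without it, and 3 rather than 2 were lower in convR ileum than duodenum. Same-numbered libraries had correlations of -0.0232 to 0.3 in duodenum, -0.0505 to 0.274 in ileum and -0.0393 to 0.188 in GF mice. These values cannot settle whether the numbers pair libraries outside convR mice, and the labels do not say. Library size scaling shifted the median log2 change of all genes by -0.12 in duodenum and 0.11 between GF tissues. At a mean of at least 1 CPM no member was left in ileum or between GF tissues. The planned ratio with Trdc was not run. Depth limits the single segments, since 70 of 91 had under 100 reads in all.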

Other observations

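Some segments were spread unevenly over the groups at low depth. Trav13-1 had 54 and 38 reads in the convR duodenum and ileum and 7 and 1 in the GF groups, while Trav15d-1-dv6d-1 had 39 and 13 reads in convR and 28 and 1 in GF duodenum and ileum. Tcrg-V6 had 61 reads in all. Beta joining segments summed to 3.08, 1.40, 2.58 and 0.532 CPM in convR duodenum, GF duodenum, convR ileum and GF ileum. No test was made of these values.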
